A study of Homo sapiens with 27 samples.

Results

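The later course of the response to SNAIL1 was followed in the SNAI1 line by setting the 3 arrays at 72 and 96 h of doxycycline (1 and 2 arrays) against the 3 arrays at 24 and 48 h (1 and 2 arrays), 6 of the 27 arrays of the series. The SNAI1 line is made of LS174T cells, a human colorectal carcinoma line, that carry a mouse Snail1 gene with an HA tag under doxycycline control. The control line is made of the same parental cells, and its labels list no overexpressed gene. Its sample descriptions begin with Luc, which they do not expand, and those of the SNAI1 line with HA. The control line gave 2 arrays at 72-96 h and 2 at 24-48 h, 1 for each time. Doxycycline stood at 0.1 µg/ml in the labels' protocols and was refreshed at 48 h, so every 72-96 h array follows the refresh. The labels do not say separately whether control cells received the drug. No 0 h array was used. The labels do not say that replicates came from separate cultures, so p-values measure the spread between these arrays. The times within a phase were treated as replicates, so this spread includes change between those times. Arrays of the same line and time were counted as separate.

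SNAIL1 is a zinc finger repressor that binds E-box sequences in promoters of epithelial genes such as CDH1 and drives epithelial-mesenchymal transition. Wnt signalling through beta-catenin maintains crypt progenitor expression in colon epithelium and is active in most colorectal cancers. ATF4 is a transcription factor whose translation rises when amino acids run short or when misfolded protein accumulates in the endoplasmic reticulum, and its targets make, import and load amino acids.

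Values below are normalized log2 intensities of Illumina bead arrays. For the SNAI1 line they are given for the array at 72 h and the 2 arrays at 96 h, then for the array at 24 h and the 2 arrays at 48 h. The 10 arrays of both lines had 18553 to 19683 probes detected above background (detection p under 0.01). Of 11 colon epithelial markers, 10 were tested and 7 were detected on all 10 arrays, while KRT20 was detected on none. VIL1 was detected on no array of the SNAI1 line at 72-96 h. The mean log2 value of the tested markers was 7.69 to 8.15 at 72-96 h and 8.61 to 9.34 at 24-48 h in the SNAI1 line. Control line means were 10.73 to 10.84 at 72-96 h and 10.64 to 10.69 at 24-48 h. In bulk RNA, fewer cells of a kind and less RNA per cell cannot be told apart. Of 23 markers of other cell types with a probe, 11 were detected on no array and 2, CD68 and ALB, on all 10. Their mean log2 value was 5.22 to 5.33 at 72-96 h and 5.15 to 5.52 at 24-48 h in the SNAI1 line. The human SNAI1 and ZEB1 probes were detected on none of the 10 arrays, and the mouse transgene has no probe here.

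The SNAI1 line kept changing after 48 h. Limma called 3767 of 12614 genes at an adjusted p under 0.05 (29.9% of those tested), 1980 higher (15.7%) and 1787 lower (14.2%) at 72-96 h than at 24-48 h. At least 2-fold changes were seen for 641 higher (5.08%) and 640 lower genes (5.07%). The median over all genes was 0.02 on the log2 scale. Over the same days the control line had 533 calls (4.23%), 278 higher (2.2%) and 255 lower (2.02%). With at least a 2-fold change 1.97% of genes were called, 1.2% higher and 0.777% lower. The control line set 2 arrays against 2 and the SNAI1 line 3 against 3, so the 2 counts differ in power. The median absolute log2 change was 0.272 in the control line and 0.318 in the SNAI1 line. At an unadjusted p under 0.05 in limma 2950 genes passed in the control line and 5139 in the SNAI1 line. The change in the SNAI1 line differed from that in the control line for 1031 genes (8.17%), of which 549 were more positive (4.35%) and 482 more negative (3.82%) in the SNAI1 line. With at least a 2-fold difference the share was 6.32%, 3.28% more positive and 3.04% more negative. Of the 3767 calls, 798 (21.2%) also passed in this difference with the same sign. Of the same calls 187 (4.96%) were past the threshold with the same sign in the control line, which is 35.1% of the control line's own calls, and 34 with the opposite sign. Both control counts rest on 1 array per time. Without the control array at 48 h, 24 h or 96 h the control line had 2, 4 or 3 calls, and without that at 72 h it had 1211. The difference had 22 calls without the control array at 48 h, 132 without that at 24 h and 593 without that at 96 h. It had 442 and 354 calls without SNAI1 line 96 h replicate 1 and replicate 2. Of 77 named genes called in the difference, 70 lost that call without at least 1 array, all 70 of them without the control array at 48 h and 54 without that at 24 h. The other 7, which kept it without each array in turn, were INHBE, PLPPR4, RUNX3, SLC3A2, FGFBP1, PCK1 and IL1B. The count for the SNAI1 line was 2481 and 2427 without these 2 arrays.

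The genes of the ATF4 and unfolded protein response rose together. Of 37 tested members 31 were higher and 1 lower at 72-96 h in the SNAI1 line, against 15.7% and 14.2% of all genes, with a median log2 change of 1.44 (0.02 over all genes). In the control line 3 were higher and 4 lower (2.2% and 2.02% of all genes), with a median of 0.19. Over all genes 4.35% differed between the lines as more positive and 3.82% as more negative in the SNAI1 line. The difference between the lines passed for 23 of the 37, all more positive in the SNAI1 line, but for 1 without the control array at 48 h and for 5 without that at 24 h. Without the control array at 72 h it was 15, as it was without either SNAI1 line array at 96 h. The list's mean log2 value was 10.63 at 72 h and 10.92 and 10.98 at 96 h, against 9.50 at 24 h and 9.33 and 9.36 at 48 h. Control line means were 9.92 and 10.10 at 72 and 96 h, against 9.92 and 9.90 at 24 and 48 h.

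DDIT3, which encodes the stress-induced transcription factor CHOP, had 10.77, 11.40 and 11.33 at 72-96 h, against 7.35, 7.18 and 7.83 at 24-48 h. Every later array lay above every earlier array, and the rise was 13.1-fold (log2 change 3.71, SE 0.231, adjusted p = 6.68e-05 in limma). DDIT3 rose in the control line too (1.51, adjusted p = 0.0279 in limma), and the change in the SNAI1 line was larger (difference 2.20, SE 0.365, adjusted p = 0.0138 in limma, and 0.0619 and 0.0592 without the control array at 24 h and 48 h). CHAC1, which encodes an enzyme that degrades glutathione, had 8.08, 8.33 and 8.37 at 72-96 h, against 4.73, 4.33 and 4.63 at 24-48 h. It was not detected on any of the 3 arrays at 24-48 h, so the rise is given as at least 12.2-fold, the mean of the later arrays against the lowest level called detected on each earlier array (adjusted p = 0.000106 in limma). SLC3A2, which encodes the heavy chain shared by several amino acid transporters, had 12.52, 12.72 and 12.92 at 72-96 h, against 10.78, 10.87 and 10.93 at 24-48 h. Its change was 1.86 (SE 0.142, adjusted p = 0.000114 in limma) in the SNAI1 line and -0.70 (adjusted p = 0.0548 in limma) in the control line, and the difference passed (2.56, adjusted p = 0.00312 in limma). SESN2, which encodes a stress-induced inhibitor of mTORC1 signalling, had 7.29, 7.23 and 7.61 at 72-96 h, against 5.29, 5.69 and 5.22 at 24-48 h (1.98, adjusted p = 0.000196 in limma).

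STC2 and TRIB3 went down before they went up. STC2, which encodes the secreted glycoprotein stanniocalcin 2, had 11.51, 12.18 and 12.37 at 72-96 h, 8.34, 7.74 and 8.09 at 24-48 h, and 9.05, 9.12 and 9.56 at 3-6 h. TRIB3, which encodes a pseudokinase induced by ATF4 and CHOP, had 12.59, 12.97 and 13.12 at 72-96 h, 10.53, 9.55 and 9.78 at 24-48 h, and 11.58, 10.97 and 11.69 at 3-6 h. The later rises of 3.97 and 2.94 (adjusted p = 0.000106 and 0.000196 in limma) carried both genes above all of their 3-6 h values. Of the 37 genes 7 had fallen and none had risen between 3-6 h and 24-48 h (9.06% lower and 9.12% higher over all genes). ATF5, which encodes a transcription factor of the same family, rose by 0.87 in the SNAI1 line (adjusted p = 0.0204 in limma) and fell by 1.96 in the control line (adjusted p = 0.0183 in limma). Its SNAI1 line call was lost without the SNAI1 line array at 24 h, 48 h replicate 2 or either at 96 h (adjusted p of 0.0545 to 0.0737 in limma), and was at 0.315 with 1 mean per line and time, while the difference of 2.83 had an adjusted p = 0.00884 in limma, and 0.0539 without the control array at 48 h.

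**Figure D1:**
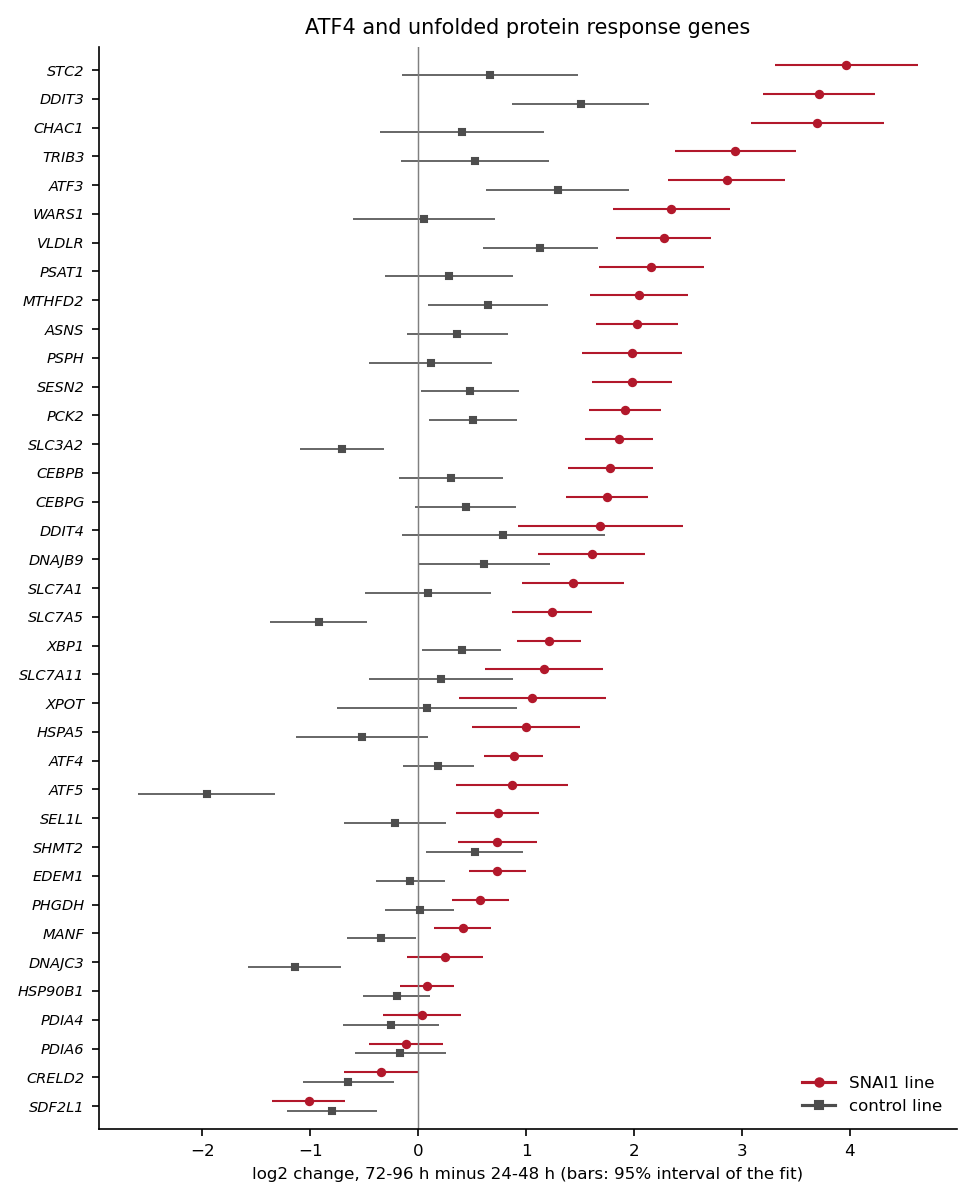
Log2 change at 72-96 h minus 24-48 h for each of the 37 tested ATF4 and unfolded protein response genes in the SNAI1 line (red circles) and the control line (grey squares), with bars for the 95% interval of the limma fit. The SNAI1 line changes run from -1.02 for SDF2L1 to 3.97 for STC2, and the control line points lie to the left of the SNAI1 line points for 36 of the 37 genes, SDF2L1 being the exception.

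Promoters of ATF4 targets can carry a C/EBP-ATF response element, TGATGNAA. It was searched on both strands from 250 bases before to 50 bases after each RefSeq gene start (GRCh38.p14), for which 28 of the 31 higher genes had an entry. The letters occurred in 5 of these 28 promoters (17.9%): ASNS, ATF3, CHAC1, SLC3A2 and SLC7A1. The list was chosen partly as ATF4 targets, which can carry this element, so a high share is no independent test. Over the whole list the letters occurred in 5 of 34 promoters (14.7%). They occurred in 1.9% of the 10107 promoters matched to tested genes and in 3.67% of all 27305 promoters. For the genes sorted by course below, they occurred in 7 of 92 promoters of genes that kept falling (7.61%). They occurred in 2 of 122 promoters of genes that kept rising (1.64%). The promoters of ASNS (asparagine synthetase), CHAC1 and ATF3 (a stress-induced transcription factor) are printed because all 3 genes rose and their matches begin at -68, -209 and -191 relative to the start. They lie at chr7:97872359-97872658 (minus strand), chr15:40953221-40953520 (plus strand) and chr1:212565157-212565456 (plus strand), and capitals mark the match, which in CHAC1 reads on the opposite strand.
ASNS: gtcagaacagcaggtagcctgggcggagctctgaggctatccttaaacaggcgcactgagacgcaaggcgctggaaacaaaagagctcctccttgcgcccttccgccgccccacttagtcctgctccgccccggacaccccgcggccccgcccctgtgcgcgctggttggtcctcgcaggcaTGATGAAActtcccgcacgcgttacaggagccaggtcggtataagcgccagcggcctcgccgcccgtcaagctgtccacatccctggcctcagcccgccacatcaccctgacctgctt
CHAC1: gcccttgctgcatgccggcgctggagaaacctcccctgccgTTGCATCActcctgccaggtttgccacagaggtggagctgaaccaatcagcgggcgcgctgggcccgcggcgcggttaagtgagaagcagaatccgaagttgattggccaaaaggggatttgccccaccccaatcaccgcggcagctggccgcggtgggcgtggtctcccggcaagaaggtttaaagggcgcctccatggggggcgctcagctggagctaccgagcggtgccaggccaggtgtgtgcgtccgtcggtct
ATF3: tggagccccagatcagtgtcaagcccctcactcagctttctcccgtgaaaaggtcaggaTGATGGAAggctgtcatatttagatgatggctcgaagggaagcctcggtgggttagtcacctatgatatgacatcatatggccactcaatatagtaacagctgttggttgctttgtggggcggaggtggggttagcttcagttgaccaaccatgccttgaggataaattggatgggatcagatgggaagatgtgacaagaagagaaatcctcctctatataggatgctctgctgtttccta
ASNS changed by 2.03 and ATF3 by 2.86 on the log2 scale in the SNAI1 line, beside 0.36 and 1.29 in the control line. ASNS, ATF3 and SLC7A1 were singled out by the motif search after their values were seen. A match of these letters is a description of the window and shows neither binding nor a cause of the change.

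Genes of lysosomes and autophagy were more often higher than lower. Of 33 tested members 19 were higher and 2 lower at 72-96 h (15.7% higher and 14.2% lower over all genes), with a median log2 change of 0.58. The control line had 0 higher and 1 lower (2.2% and 2.02% over all genes), with a median of 0.14. MAP1LC3B, which encodes the autophagosome protein LC3B, had 11.18, 11.71 and 11.78 at 72-96 h, against 9.05, 9.59 and 9.83 at 24-48 h (2.06, SE 0.221, adjusted p = 0.000437 in limma). GABARAPL1, which encodes a relative of LC3B, rose by 1.57 (adjusted p = 0.0014 in limma), and CTSB, which encodes the protease cathepsin B, by 1.30 (adjusted p = 0.00151 in limma). ATP6AP1, which encodes an accessory subunit of the proton pump that acidifies lysosomes, rose by 0.79 (adjusted p = 0.00204 in limma). The difference from the control line passed for MAP1LC3B (1.92, adjusted p = 0.0166 in limma) and CTSB (1.19, adjusted p = 0.0421 in limma). Over all genes it passed for 4.35% as more positive and 3.82% as more negative. Without the control array at 24 h and at 48 h it was lost for MAP1LC3B (0.0654 and 0.0762) and for CTSB (0.129 and 0.134). It passed for 6 genes of the list as more positive and 1 as more negative, and the 6 became 0 without the control array at 24 h or 48 h and 2 without that at 96 h.

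The largest rises were led by INHBE, a gene outside the ATF4 list that encodes a subunit of activin E. INHBE had 10.64, 11.21 and 11.38 at 72-96 h, against 6.09, 5.39 and 6.10 at 24-48 h. That is a 37.1-fold rise (log2 change 5.21, SE 0.306, adjusted p = 6.68e-05 in limma), with 7.59 and 8.62 at 72 and 96 h, against 7.18 and 6.95 at 24 and 48 h in the control line. CBS, which encodes the transsulfuration enzyme cystathionine beta-synthase, had 8.29, 9.51 and 9.58, against 4.47, 4.75 and 4.78 (4.46, adjusted p = 0.000377 in limma), with detection on 1 earlier array. ULBP1, which encodes a ligand of the natural killer cell receptor NKG2D, had 9.17, 9.48 and 9.77, against 5.64, 5.37 and 5.49 (3.97, adjusted p = 7.28e-05 in limma). For these 3 genes the gap between the phases was larger than the spread within either phase.

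Another 6 large rises had no call in the control line. IGFBP7, which encodes a secreted insulin-like growth factor binding protein, had 9.94, 11.50 and 11.54 at 72-96 h, against 5.63, 6.41 and 5.93 at 24-48 h (5.01, SE 0.461, adjusted p = 0.000268 in limma). RUNX3, which encodes a transcription factor of the Runt family, had 9.29, 10.47 and 10.15, against 6.05, 6.70 and 5.51 (3.88, adjusted p = 0.000315 in limma). NELL2, which encodes a secreted glycoprotein, had 9.40, 10.38 and 11.09, against 4.74, 6.68 and 6.07 (4.46, adjusted p = 0.000546 in limma). In each of the 3 genes the 72 h array lay below both 96 h arrays. KANK4, which encodes an ankyrin repeat protein, was not detected at 24-48 h and ended at least 21.5-fold higher, with 7.43 at 72 h and 9.77 and 9.89 at 96 h. EFEMP2, which encodes the elastic fibre protein fibulin 4, rose by 3.92 (adjusted p = 0.000106 in limma), and PLPPR4, which encodes a membrane protein of the phospholipid phosphatase family, by 3.94 (adjusted p = 6.68e-05 in limma). The difference from the control line passed for all 6 genes (adjusted p of 0.00434 to 0.0171 in limma). Without the control array at 48 h it was lost for IGFBP7 (0.0539), EFEMP2 (0.0553), NELL2 (0.075) and KANK4 (0.0763), and without that at 24 h for NELL2 and KANK4 (0.0654 each).

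**Figure D2:**
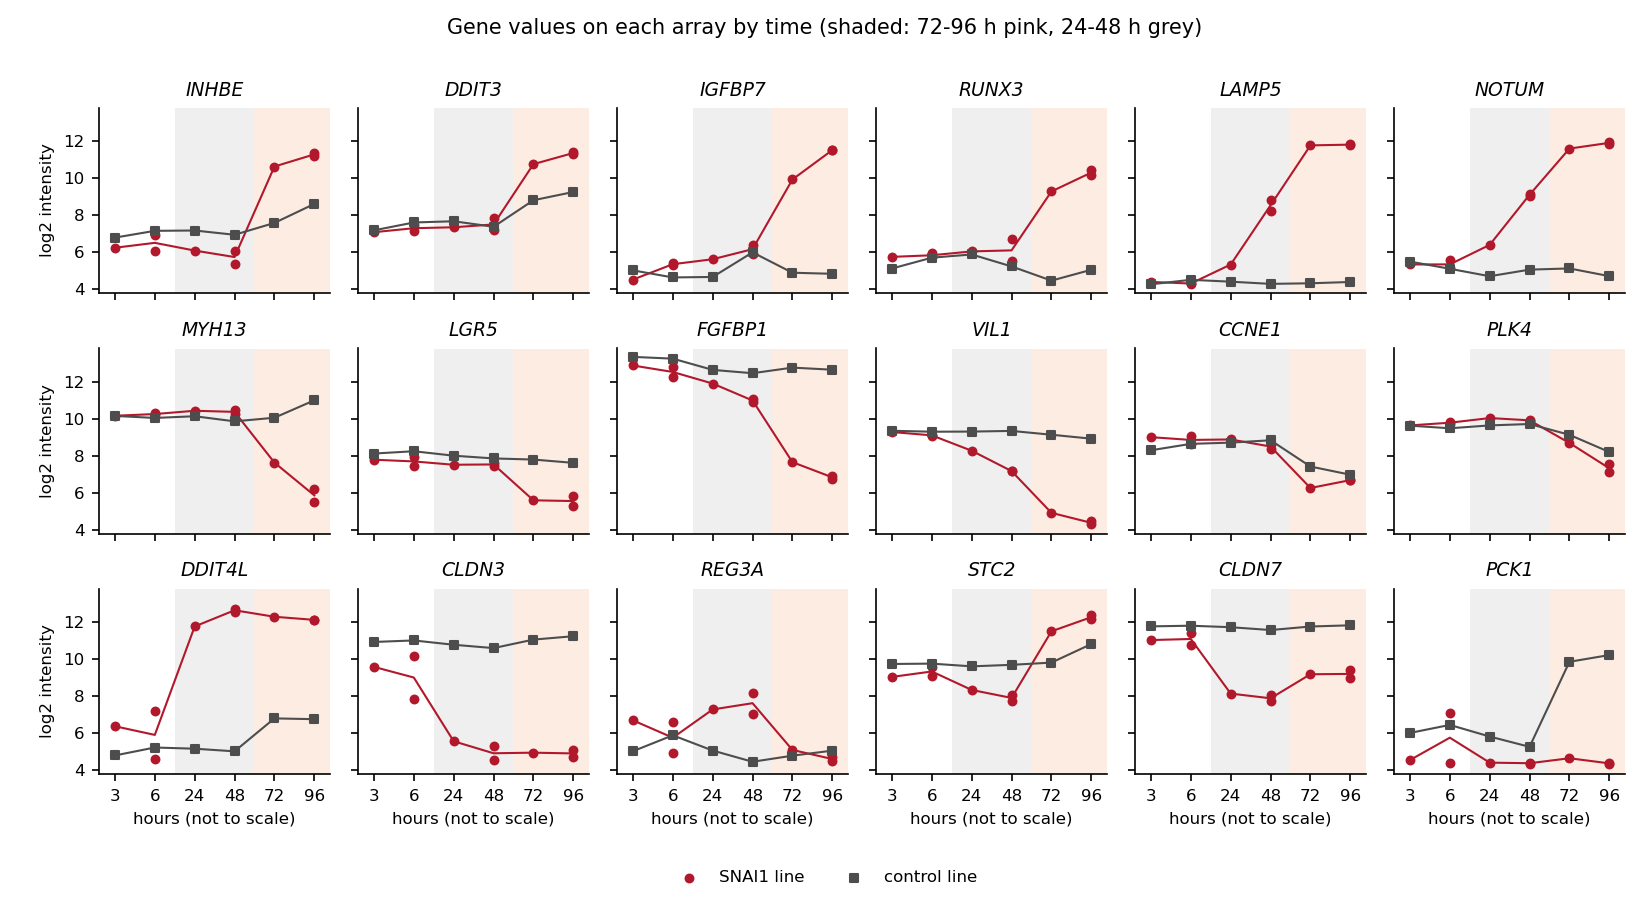
Log2 intensity of 18 genes on each array of the SNAI1 line (red circles) and the control line (grey squares) by labelled hours. Lines run through the mean of each time, and time points are evenly spaced. In the top row the SNAI1 line values at 72 and 96 h lie above those at 24 and 48 h in all 6 panels, in the middle row they lie below them, and the bottom row shows genes that held, turned back or, for PCK1, changed in the control line.

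Most cell cycle genes fell in the SNAI1 line, and their medians were below 0 in the control line too. Of 51 G2/M and mitosis genes 47 were lower and 0 higher at 72-96 h in the SNAI1 line (14.2% lower and 15.7% higher over all genes), with a median log2 change of -1.90. In the control line 1 was lower, a share close to the 2.02% of all genes, with a median of -0.92. The difference between the lines passed for 0 of the 51 in limma (3 at an unadjusted p under 0.05), against 8.17% of all genes. The list's mean log2 value in the SNAI1 line was 9.31 at 72 h and 7.64 and 7.99 at 96 h, against 10.28 at 24 h and 10.09 and 10.09 at 48 h. Control line means were 9.62 at 72 h and 8.10 at 96 h, against 9.77 at 24 h and 9.84 at 48 h. In both lines the mean of this list fell more between 72 and 96 h than between 48 and 72 h. The 47 calls became 19 without either SNAI1 line array at 96 h, 24 without that at 24 h and 31 without 48 h replicate 2. They also became 24 with line and time as a random block.

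PLK4, which encodes the kinase that starts centriole duplication, had 8.69, 7.10 and 7.55 at 72-96 h, against 10.04, 9.90 and 9.94 at 24-48 h (-2.18, SE 0.369, adjusted p = 0.00294 in limma). It had 9.13 and 8.20 at 72 and 96 h in the control line, against 9.64 and 9.72 at 24 and 48 h. CENPM, a centromere protein gene, fell by 2.18 and MAD2L1, a spindle checkpoint gene, by 1.90 on the log2 scale (adjusted p = 0.0033 and 0.00336 in limma). CDC25A, which encodes a phosphatase that activates cyclin-dependent kinases, fell by 2.07 in the SNAI1 line and by 1.80 in the control line (adjusted p = 0.000279 and 0.0174 in limma).

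G1/S and DNA replication genes gave 37 of 44 lower and 0 higher in the SNAI1 line (median -1.48), where 14.2% and 15.7% of all genes were. In the control line 15 were lower and 0 higher (median -1.09), beside 2.02% and 2.2% over all genes. The difference passed for 1 gene, CCND1, as more positive in the SNAI1 line, which is named because it made up that count. Over all genes 4.35% were more positive and 3.82% more negative. CCNE1, which encodes cyclin E1, had 6.26, 6.68 and 6.69 at 72-96 h, against 8.88, 8.63 and 8.37 at 24-48 h (-2.08, adjusted p = 0.000244 in limma). In the control line it had 7.42 and 6.98, against 8.71 and 8.84 (-1.58, adjusted p = 0.0184 in limma). Here the 72 h arrays were already low in both lines. Another CCNE1 probe changed by -0.82 in the SNAI1 line without a call (adjusted p = 0.182 in limma). MCM3, which encodes a subunit of the replicative helicase, fell by 1.25 in each line, and FEN1, a flap endonuclease gene, by 1.80 in the SNAI1 line and 1.69 in the control line. None of the 44 or 51 genes was called between 3-6 h and 24-48 h in the SNAI1 line, where 18.2% of all genes were.

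Inhibitors of the cell cycle and targets of p53 numbered 33, with 11 higher and 3 lower at 72-96 h (15.7% higher and 14.2% lower over all genes). The control line had 1 higher and 3 lower of them (2.2% and 2.02% over all genes). CDKN2B, which encodes the inhibitor p15, had 6.72, 8.52 and 7.96, against 4.46, 5.12 and 4.70 (2.97, SE 0.383, adjusted p = 0.000955 in limma), and it was detected on no control line array. The difference from the control line was 2.82 (adjusted p = 0.0274 in limma, and up to 0.0993 with 1 array left out). TNFRSF10B, which encodes the death receptor DR5, rose by 1.20 (adjusted p = 0.000812 in limma). BTG1, an antiproliferative gene, rose by 1.21 in the SNAI1 line and by 1.00 in the control line (adjusted p = 0.00101 and 0.0311 in limma). CDKN1A, which encodes p21, changed by 0.31 and was not called (adjusted p = 0.104 in limma), though 3 of 13 alternatives other than leaving out 1 array called it. Of 42 ribosome biogenesis genes linked to MYC 13 were lower and 1 higher (14.2% lower and 15.7% higher over all genes), with medians of -0.35 in the SNAI1 line and -0.41 in the control line. The 13 became 6 without either SNAI1 line array at 96 h, 7 without that at 24 h and 8 without that at 72 h, and 6 of 42 is near the share over all genes.

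**Figure D3:**
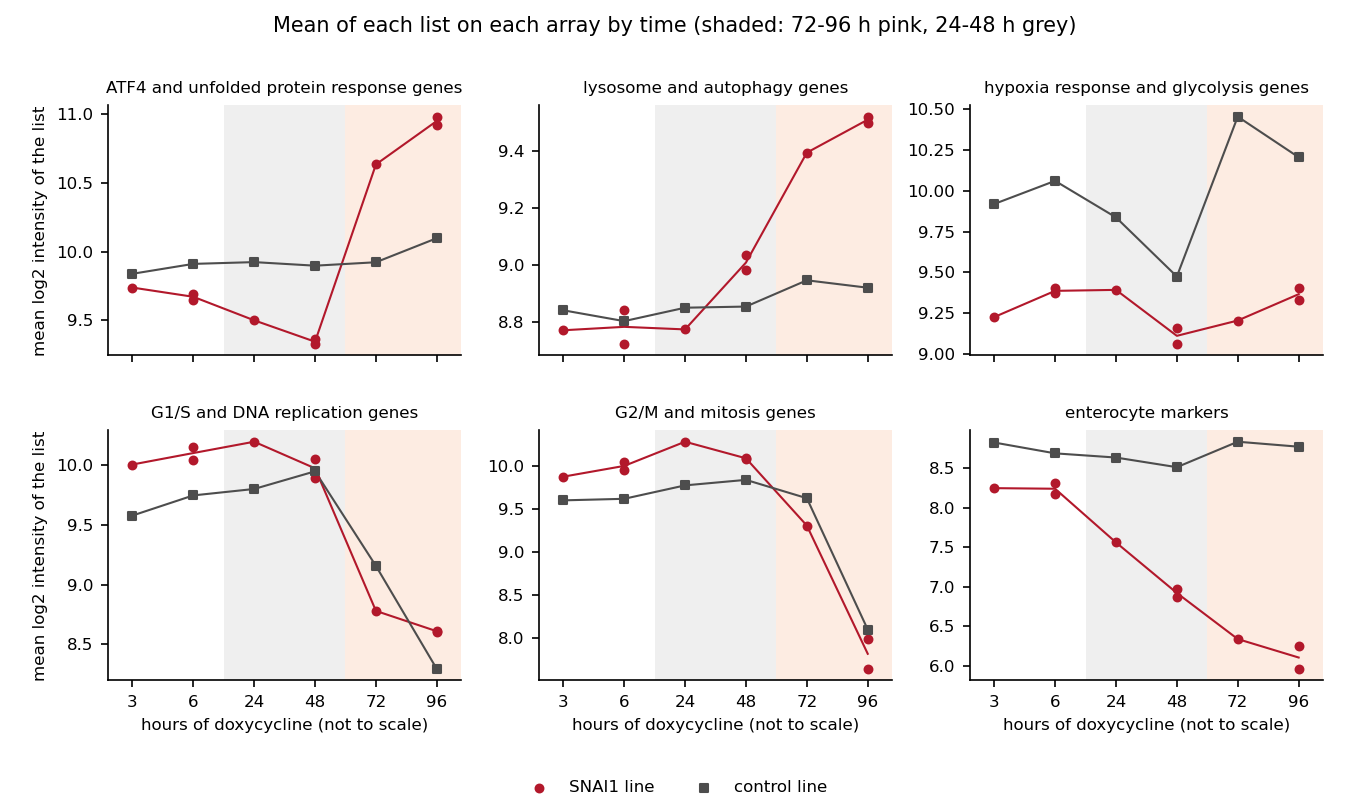
Mean log2 intensity of 6 gene lists on each array of the SNAI1 line (red circles) and the control line (grey squares) by labelled hours. Time points are evenly spaced, and each panel has a separate vertical scale. The ATF4 list reaches 10.63 to 10.98 at 72-96 h in the SNAI1 line and 9.92 to 10.10 in the control line, while both cell cycle lists drop after 48 h in both lines.

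The earlier step in the SNAI1 line, 24-48 h against 3-6 h, was used to sort genes by their course. It called 2293 genes (18.2%), and 731 of them (5.8% of genes tested) changed at least 2-fold, 322 higher (2.55%) and 409 lower (3.24%). Of the 731, 286 kept moving in the same direction at 72-96 h (154 higher and 132 lower), and 63 turned back (27 had gone up and 36 down). Another 232 held, meaning that the later change was not called and its 95% interval lay within 2-fold either way (76 higher and 156 lower). The remaining 150 were not resolved. A further 900 genes, 420 higher and 480 lower, moved at least 2-fold at 72-96 h without a call in the earlier step. In the control line the 420 had a median log2 change of 0.27 over the later days and the 480 one of -0.59. The difference between the lines passed with the same sign for 170 of the 420 and 115 of the 480. These genes were picked by their SNAI1 line change, which is part of that difference. The 480 include 47 G2/M and 30 G1/S genes. Both steps share the 24-48 h arrays, so an error there moves the steps in opposite directions. With the arrays split between the steps the counts were 115 kept moving, 22 turned back, 189 held and 518 late movers. Without the 24 h array 457 genes held and 623 moved late.

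**Figure D4:**
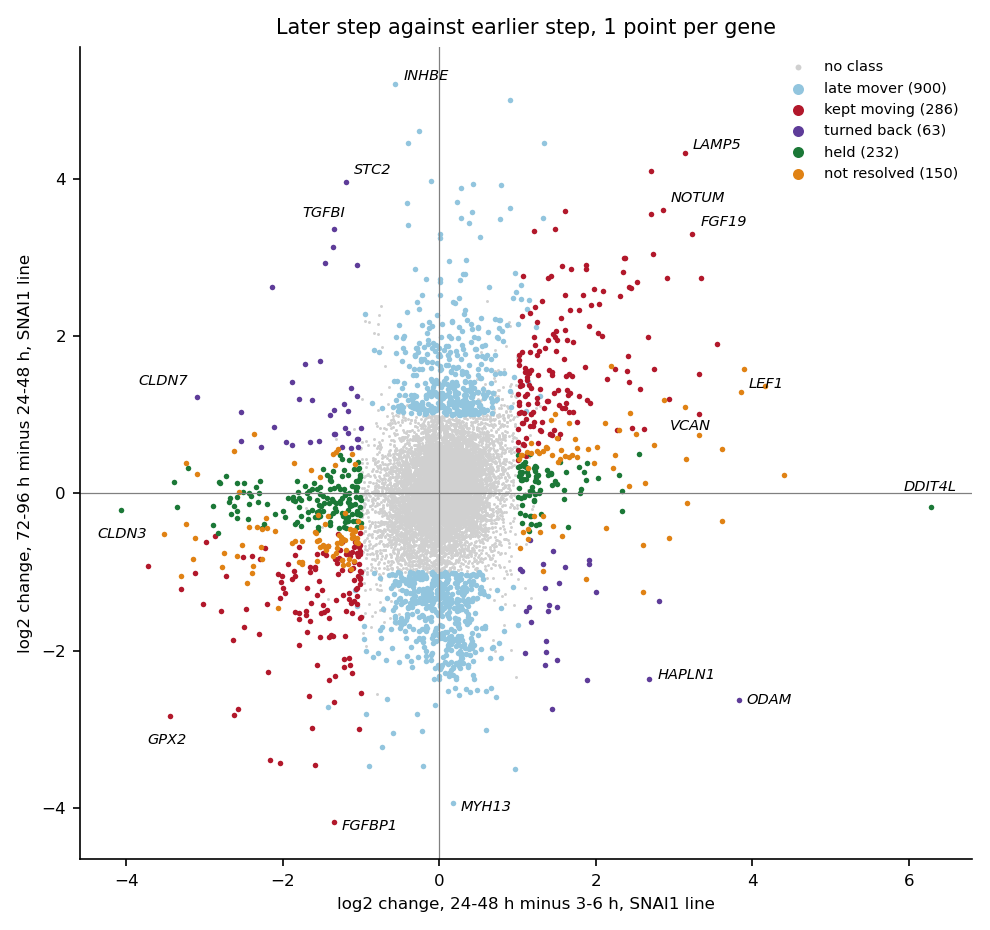
Log2 change of each gene in the SNAI1 line from 24-48 h to 72-96 h (vertical) against the change from 3-6 h to 24-48 h (horizontal), 1 point per gene, coloured by class of course. INHBE and MYH13 lie at the ends of the late movers near the vertical axis, LAMP5 and FGFBP1 at the ends of the genes that kept moving, and DDIT4L and CLDN3 far along the horizontal axis where genes held.

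Genes that kept rising had median log2 changes of 1.47 in the earlier and 1.52 in the later step, with 0.18 in the control line over the later days. LAMP5, which encodes a lysosome-associated membrane protein of neurons and dendritic cells, had 11.78, 11.84 and 11.80 at 72-96 h, against 5.34, 8.85 and 8.23 at 24-48 h. CALCB, which encodes a calcitonin gene-related peptide, had 11.14, 11.58 and 11.24, against 5.28, 8.63 and 7.73. In both genes the 24 h array was at least 2 log2 units below the 48 h arrays and the 3 later arrays were level with each other. NOTUM, which encodes an enzyme that inactivates Wnt ligands, had 11.61, 11.88 and 11.95 at 72-96 h, against 6.40, 9.16 and 9.06 at 24-48 h, after 5.34, 5.13 and 5.57 at 3-6 h. Its steps were 2.86 and then 3.61 on the log2 scale (adjusted p = 0.00375 and 0.00284 in limma). APOE, the gene of apolipoprotein E, rose by 3.56 (adjusted p = 0.00176 in limma), EFNB3, the gene of ephrin B3, by 3.59 (adjusted p = 0.00174 in limma), and LY6G6D, a surface antigen gene, by 3.37 (adjusted p = 0.00135 in limma).

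Genes that kept falling had medians of -1.42 in the earlier and -1.20 in the later step, with -0.05 in the control line. FGFBP1, which encodes a secreted carrier of fibroblast growth factors, had 7.66, 6.92 and 6.75 at 72-96 h, against 11.90, 10.89 and 11.09 at 24-48 h. Its fall by 4.18 was the largest of any gene (SE 0.292, adjusted p = 8.04e-05 in limma), while the control line had 12.77 and 12.65, against 12.64 and 12.46. PIGR, which encodes the receptor that carries immunoglobulins across mucosal epithelium, had 5.81, 4.53 and 5.21, against 9.92, 7.81 and 8.12 (-3.43, adjusted p = 0.00197 in limma). TRABD2A, which encodes a membrane protease that inactivates Wnt ligands, had 4.99, 4.61 and 5.08, against 9.28, 7.90 and 7.88 (-3.46, adjusted p = 0.000316 in limma). CNTNAP2, a neurexin family gene, fell by 3.39 (adjusted p = 0.000576 in limma). GAL, which encodes the neuropeptide galanin, was not detected on the 3 later arrays and ended at least 7.83-fold lower (adjusted p = 0.000395 in limma). GPX2, which encodes the gastrointestinal glutathione peroxidase, had 5.89, 6.33 and 6.43, against 10.48, 8.43 and 8.24, with steps of -3.44 and then -2.83 (adjusted p = 0.000332 and 0.00338 in limma).

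E-box letters CAGGTG, the core bound by SNAIL proteins, were searched on both strands in the same windows. They occurred in 33 of the 92 promoters matched to genes that kept falling (35.9%) and in 15 of the 122 matched to genes that kept rising (12.3%). They occurred in 18.6% of the promoters of all tested genes and in 20.6% of all promoters. The promoters of GPA33, LGALS4 and PIGR, colon epithelial genes that kept falling, are printed with the matches in capitals. They lie at chr1:167090328-167090627, chr19:38812896-38813195 and chr1:206946417-206946716, all on the minus strand. The matches begin at -104 and -79 in GPA33, where they read on the opposite strand, at -175 in LGALS4 and at -19 in PIGR.
GPA33: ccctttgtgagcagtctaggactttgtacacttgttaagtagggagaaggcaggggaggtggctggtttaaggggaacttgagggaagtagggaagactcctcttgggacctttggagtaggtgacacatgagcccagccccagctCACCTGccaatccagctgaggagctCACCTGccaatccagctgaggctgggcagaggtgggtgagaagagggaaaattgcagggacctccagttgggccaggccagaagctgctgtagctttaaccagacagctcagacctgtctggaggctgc
LGALS4: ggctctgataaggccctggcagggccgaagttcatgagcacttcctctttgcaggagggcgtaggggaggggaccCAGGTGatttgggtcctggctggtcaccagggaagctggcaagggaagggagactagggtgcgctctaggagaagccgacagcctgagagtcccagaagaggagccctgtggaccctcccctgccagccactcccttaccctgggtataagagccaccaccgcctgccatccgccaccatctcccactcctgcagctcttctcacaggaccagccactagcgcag
PIGR: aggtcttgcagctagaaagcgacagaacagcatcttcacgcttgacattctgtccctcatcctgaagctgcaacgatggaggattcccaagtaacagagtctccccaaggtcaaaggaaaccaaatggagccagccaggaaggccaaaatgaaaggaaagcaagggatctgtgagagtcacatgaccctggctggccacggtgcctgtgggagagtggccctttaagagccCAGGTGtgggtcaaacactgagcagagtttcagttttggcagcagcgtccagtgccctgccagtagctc
The E-box and response element letters were counted separately. A window without a match says only that it lacks these letters, and a match shows neither binding nor a cause of the change. The letters were not counted for the genes that held, turned back or moved late.

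Genes that turned back included secreted and epithelial genes. Of those that first went up, REG3A, which encodes an antibacterial lectin of the gut, had 5.10, 4.53 and 4.69 at 72-96 h, 7.29, 7.05 and 8.20 at 24-48 h, and 6.70, 6.61 and 4.91 at 3-6 h. HAPLN1, a hyaluronan link protein gene, had 4.76, 4.37 and 5.35, against 5.85, 6.79 and 8.95 at 24-48 h (-2.37, adjusted p = 0.0207 in limma). ODAM, which encodes a protein of junctional epithelium at the tooth, had 7.44 at 72 h and 4.70 and 5.02 at 96 h, against 7.24, 8.94 and 8.89 at 24-48 h, so its groups overlapped. With line and time as a random block in limma HAPLN1 and ODAM lost their calls (adjusted p = 0.116 and 0.0591 in limma). HAPLN1 also lost its call without SNAI1 line 96 h replicate 1 (0.0718), and ODAM without either array at 48 h or at 96 h (0.0537 to 0.0668). H19, an imprinted long non-coding RNA, fell by 2.18 (adjusted p = 0.00376 in limma) after a rise of 1.35. In the control line H19 rose by 2.23 (adjusted p = 0.039 in limma), and the difference of -4.42 passed (adjusted p = 0.0093 in limma). With 1 mean per line and time over 27 arrays H19 lost its call in the SNAI1 line (0.276) and in the difference (0.207), and without the control array at 48 h in the difference (0.059). TCF4, which encodes the E-protein E2-2, was detected at 24-48 h and on none of the later arrays, a fall of at least 2.45-fold.

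Of the genes that first went down, CLDN7, which encodes a tight junction claudin, had 9.19, 9.40 and 9.02 at 72-96 h, 8.15, 7.73 and 8.05 at 24-48 h, and 11.04, 10.77 and 11.43 at 3-6 h. Its later rise of 1.23 (adjusted p = 0.000803 in limma) was smaller than the earlier step, in which it fell by 3.10. ST14, which encodes the epithelial protease matriptase, rose by 1.19 after a fall of 1.63. TGFBI, a matrix gene induced by TGF-beta, had 10.69, 11.94 and 11.69, against 8.58, 8.09 and 7.53 (3.37, adjusted p = 0.000504 in limma), and lay above its 3-6 h values of 9.35, 9.40 and 9.50. S100P, a calcium-binding protein gene, and ASS1, which encodes argininosuccinate synthase, rose by 2.63 and 3.14 (adjusted p = 0.00249 and 0.00074 in limma). TGFBI, S100P and ASS1 changed by 1.29, 1.26 and 0.88 in the control line without a call, and their differences between the lines had an adjusted p of 0.0592, 0.237 and 0.0506 in limma. MKX, which encodes the homeobox factor Mohawk, rose by 2.91 with a difference that passed (2.69, adjusted p = 0.0132 in limma, and 0.0562 and 0.0694 without the control array at 24 h and at 48 h).

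Genes that held had made their change by 24-48 h. DDIT4L, which encodes a stress-induced inhibitor of mTOR signalling, had 12.30, 12.13 and 12.13 at 72-96 h, 11.78, 12.72 and 12.58 at 24-48 h, and 6.38, 7.23 and 4.60 at 3-6 h. Its earlier step was 6.29, and the later change was -0.17 with SE 0.221. TDO2, which encodes a tryptophan-degrading dioxygenase, had an earlier step of 2.56 and a later change of 0.50 (adjusted p = 0.0816 in limma). That later rise was called in 4 of 13 alternatives other than leaving out 1 array. RUNX1, RGL1 and RTN2 had later changes of 0.03, 0.24 and 0.19, each with a 24 h array below both 48 h arrays. On the falling side CLDN3, a tight junction claudin gene, had 4.95, 5.10 and 4.72 at 72-96 h, 5.57, 5.30 and 4.54 at 24-48 h, and 9.59, 7.83 and 10.20 at 3-6 h. CLDN3 was detected on 1 of the 3 later arrays and ANXA3, an annexin gene, on none of the 6 arrays at 24-96 h, so a further fall could not be seen. Of the 156 genes that held low, 50 were detected on no array at 72-96 h and 29 on none of the 6. TM7SF2, a sterol reductase gene, was detected on all 6 arrays at 6.86, 6.50 and 6.70, against 7.30, 6.58 and 6.67.

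LEF1, which encodes a beta-catenin partner, had 11.81, 11.84 and 11.87 at 72-96 h, 9.24, 11.15 and 11.27 at 24-48 h, and 6.62, 7.11 and 6.35 at 3-6 h. Its later change was 1.29 (SE 0.439, adjusted p = 0.0519 in limma), and its 24 h array lay below both 48 h arrays. VCAN, the gene of the matrix proteoglycan versican, had 12.62, 12.17 and 12.27, against 10.03, 12.08 and 11.64 (1.10, adjusted p = 0.104 in limma). Both genes were therefore left as not resolved. Of 13 alternatives other than leaving out 1 array, 6 called the later rise of LEF1 and 3 that of VCAN. AXIN2, which encodes a scaffold that restrains Wnt signalling, rose by 0.91 (adjusted p = 0.0188 in limma, and 0.0653 without SNAI1 line 96 h replicate 2).

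Of 27 Wnt targets and feedback genes 11 were higher and 6 lower at 72-96 h (15.7% higher and 14.2% lower over all genes). The 11 became 6 without SNAI1 line 96 h replicate 2. FGF19, which encodes a secreted fibroblast growth factor, had 11.61, 11.96 and 12.25, against 7.38, 9.27 and 9.27 (3.30, adjusted p = 0.00146 in limma). LGR5, the intestinal stem cell receptor gene, had 5.59, 5.27 and 5.84 at 72-96 h, against 7.52, 7.47 and 7.60 at 24-48 h. The fall of LGR5 by 1.96 (SE 0.156, adjusted p = 0.000152 in limma) came with no call in the earlier step, and it differed from the control line (-1.74, adjusted p = 0.0093 in limma, and 0.0592 without the control array at 48 h). CDX1, a homeobox gene of intestinal identity, fell by 2.28 (adjusted p = 0.000468 in limma) and SOX9, a crypt transcription factor gene, by 0.94 (adjusted p = 0.00069 in limma). SOX9 lost its call with 1 mean per line and time over 27 arrays, at a log2 change of -0.94. EPHB3, which encodes a receptor that positions crypt cells, had 5.86, 5.26 and 5.99, against 7.46, 6.29 and 6.95 (-1.20, adjusted p = 0.0154 in limma), and lost its call without SNAI1 line 96 h replicate 1 (0.059) and with 1 mean per line and time (0.0752). MYC fell by 0.64 (adjusted p = 0.0285 in limma), with 0.0598 where each line was fitted alone and 0.0521 to 0.0836 without the SNAI1 line array at 24 h, 72 h, 48 h replicate 2 or 96 h replicate 1.

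Some colon epithelial genes were lower after 48 h. Of the 10 tested colon epithelial identity markers 5 were lower and 2 higher in the SNAI1 line (14.2% lower and 15.7% higher over all genes), and none was called in the control line. The 2 higher ones were KRT8 and CDX2, an intestinal homeobox gene that changed by 0.90 and is named because it made up that count. Enterocyte markers had 5 lower and 0 higher of 14 tested, and 5 members differed from the control line in the same direction (3.82% of all genes). VIL1, which encodes the microvillus protein villin, had 4.92, 4.30 and 4.46, against 8.27, 7.17 and 7.18, and ended at least 7.29-fold lower (adjusted p = 0.000315 in limma). GPA33, the gene of the intestinal surface antigen A33, had 6.03, 6.05 and 5.31, against 9.76, 7.83 and 8.04 (-2.75, adjusted p = 0.00241 in limma), while the control line had 12.34 and 12.60, against 11.94 and 11.70. LGALS4, the gene of galectin 4, fell by 2.19 (adjusted p = 0.00105 in limma) and TSPAN8, a tetraspanin gene, by 2.81 (adjusted p = 0.00093 in limma). The 5 differences were 1 without the control array at 24 h, 0 without that at 48 h and 3 without that at 96 h.

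Goblet and secretory markers had 13 of 32 lower and 0 higher (14.2% lower and 15.7% higher over all genes), with a median log2 change of -0.80 against 0.17 in the control line. The 13 became 6 without SNAI1 line 96 h replicate 2 and 8 without that at 24 h. MUC13, which encodes a membrane mucin, had 7.67, 6.31 and 5.97, against 9.97, 9.58 and 9.46 (-3.02, SE 0.369, adjusted p = 0.00076 in limma), with no call in the earlier step (-0.22). AGR2, a disulfide isomerase gene of secretory cells, fell by 1.77 (adjusted p = 0.00451 in limma), and ST6GALNAC1, a sialyltransferase gene that acts on mucins, fell as well (adjusted p = 0.00275 in limma). SPINK1, which encodes a trypsin inhibitor, fell by 1.85 (adjusted p = 0.0068 in limma). GPR15LG, which encodes a chemoattractant of colon epithelium, and REG1A, which encodes a regenerating protein, fell by 3.47 and 3.50 (adjusted p = 0.000837 and 0.00177 in limma). MYH13, a muscle myosin heavy chain gene, had 7.63, 5.51 and 6.21, against 10.44, 10.28 and 10.47, a fall by 3.94 (adjusted p = 0.000616 in limma), beside a change of 0.53 in the control line without a call.

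UGT1A6 and UGT1A1, which encode glucuronidating enzymes of 1 gene locus, fell by 3.47 and 3.05 (adjusted p = 0.00023 and 0.000282 in limma). Their transcripts share exons, so the share of each is uncertain. APOBEC3B, which encodes a cytidine deaminase, fell by 3.02 (adjusted p = 0.00466 in limma). PTGDR, a prostaglandin receptor gene, had 5.37, 5.27 and 5.09, against 8.95, 7.74 and 8.74, and fell by 3.23 in the SNAI1 line and by 2.32 in the control line (adjusted p = 0.000554 and 0.0301 in limma). The PTGDR difference of -0.91 did not pass (adjusted p = 0.354 in limma).

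Of 30 junction genes 11 were lower and 6 higher at 72-96 h (14.2% lower and 15.7% higher over all genes). In the earlier step 12 were lower and 0 higher (9.06% and 9.12% over all genes). CDH1, which encodes E-cadherin, had 9.75, 9.33 and 9.38 at 72-96 h, against 10.93, 10.45 and 10.52 at 24-48 h (-1.15, SE 0.17, adjusted p = 0.00162 in limma). The CDH1 difference from the control line was -1.12 (adjusted p = 0.038 in limma), and this call was lost without each control array in turn (0.0601 to 0.134) and without 3 SNAI1 line arrays. PKP2, a desmosomal plakophilin gene, and MARVELD3, a tight junction gene, fell by 1.64 and 1.58 (adjusted p = 0.00033 and 0.000504 in limma). DSC2, which encodes the desmosomal cadherin desmocollin 2, had 10.43, 10.75 and 10.73, against 8.81, 8.82 and 8.90 (1.80, SE 0.125, adjusted p = 8.04e-05 in limma), and rose while CDH1 fell. Regulators of epithelial identity and keratins numbered 28, with 10 lower and 6 higher at 72-96 h, beside 14.2% and 15.7% over all genes. OVOL2, which encodes a repressor that maintains epithelial identity, had 7.61, 6.61 and 6.49, against 9.78, 9.02 and 8.78 (-2.29, adjusted p = 0.00141 in limma). KRT8, the gene of keratin 8, had 11.08, 10.99 and 11.06, against 9.86, 10.03 and 9.97 (1.09, adjusted p = 0.00158 in limma).

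Of 16 mesenchymal genes 5 were higher and 2 lower (15.7% higher and 14.2% lower over all genes). The 5 became 3 without the SNAI1 line array at 24 h or either at 96 h. PRRX1, a homeobox gene of mesenchyme, was not detected at 24-48 h and ended at least 4.17-fold higher, with 6.74, 6.48 and 6.84 at 72-96 h (adjusted p = 6.68e-05 in limma). Another PRRX1 probe changed by 0.39 without a call (adjusted p = 0.0952 in limma). CDH11, a mesenchymal cadherin gene, had 11.19, 11.21 and 11.14, against 7.73, 9.66 and 8.96 (2.40, adjusted p = 0.0024 in limma), and ITGA5, the fibronectin receptor alpha subunit gene, rose by 2.49 (adjusted p = 0.000268 in limma). VIM, the gene of vimentin, had 8.31, 8.05 and 7.55, against 7.75, 8.30 and 7.91 (-0.02, adjusted p = 0.962 in limma), while another probe for VIM, detected on 4 arrays in all, changed by 1.16 (adjusted p = 0.0384 in limma). Of 29 matrix, protease and integrin genes 10 were higher and 2 lower, against the same shares over all genes. ITGB1, the integrin beta 1 gene, had 13.36, 13.74 and 13.86, against 12.12, 12.31 and 12.39 (1.38, adjusted p = 0.000518 in limma). ITGA1 rose by 2.37, the metalloprotease gene ADAM19 by 2.80 and CCN1, a matricellular gene, by 1.44 (adjusted p = 0.000813, 0.00123 and 0.00135 in limma).

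The list of Notch, BMP and TGF-beta genes had 8 higher and 5 lower members of 30 tested (15.7% higher and 14.2% lower over all genes). HEY1, which encodes a Notch effector, had 8.97, 9.22 and 9.17, against 5.97, 7.09 and 7.05 (2.42, adjusted p = 0.00054 in limma), and JAG1, a Notch ligand gene, rose by 1.96 (adjusted p = 0.000176 in limma). ID2, which encodes an inhibitor of basic helix-loop-helix factors, rose by 2.15 (adjusted p = 0.000947 in limma). HEY1, JAG1 and ID2 all differed from the control line (adjusted p = 0.0141, 0.0138 and 0.0132 in limma). All 3 lost this call without the control array at 24 h (0.051 to 0.0581) and without that at 48 h (0.0681 to 0.072). Of 17 Eph receptors and ephrins 7 were higher and 2 lower (15.7% higher and 14.2% lower over all genes). In the control line 2 were higher and 0 lower (2.2% and 2.02% over all genes). EPHA4, an Eph receptor gene, rose by 1.56 (adjusted p = 0.00908 in limma), while EFNA1 and EFNB1 rose alike in both lines, by 0.74 and 0.83 in each. EFNB1 lost its SNAI1 line call with 1 mean per line and time over 27 arrays, at a log2 change of 0.76.

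Of 36 hypoxia response and glycolysis genes 8 were higher and 5 lower in the SNAI1 line (median -0.11, with 15.7% higher and 14.2% lower over all genes). In the control line 7 were higher and 0 lower (median 0.69, with 2.2% higher and 2.02% lower over all genes). The list's mean log2 value was 9.20 at 72 h and 9.40 and 9.33 at 96 h in the SNAI1 line, against 9.39, 9.16 and 9.06 at 24-48 h. Control line means were 10.46 and 10.21 at 72 and 96 h, against 9.84 and 9.48 at 24 and 48 h. VEGFA, the angiogenic growth factor gene, and P4HA2, a collagen prolyl hydroxylase gene, rose by 1.86 and 1.59 in the SNAI1 line (adjusted p = 0.00162 and 0.00127 in limma), and LDHA, the lactate dehydrogenase A gene, fell by 0.84 (adjusted p = 0.00673 in limma). Over all genes the difference between the lines passed for 3.82% as more negative and 4.35% as more positive. The difference passed for 5 genes as more negative and 1 as more positive in the SNAI1 line, and the count of 5 became 0 without the control array at 24, 48 or 72 h, or without either SNAI1 line array at 96 h.

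Of 34 interferon response and antigen presentation genes 13 were higher and 8 lower (15.7% higher and 14.2% lower over all genes). In the control line 2 were higher and 1 lower, beside 2.2% and 2.02% over all genes. ISG20, an interferon-induced exonuclease gene, rose by 2.39 in the SNAI1 line and 1.08 in the control line (adjusted p = 0.000196 and 0.0444 in limma). PSMB9, an immunoproteasome subunit gene, fell by 0.86 (adjusted p = 0.00131 in limma). Of 29 cholesterol synthesis genes 10 were lower and 1 higher in the SNAI1 line, against 14.2% and 15.7% over all genes. ACAT2 fell by 1.10, FASN by 0.96, ELOVL6 by 0.89 and INSIG1 by 0.85. Another ACAT2 probe changed by -0.45 without a call (adjusted p = 0.313 in limma). Of 12 reference genes 2 were lower and 1 higher, beside 14.2% and 15.7% over all genes. SDHA and HPRT1 fell by 1.34 and 1.10 (adjusted p = 0.000473 and 0.00152 in limma) and B2M rose by 0.47. The B2M call was lost with the mean of its probes and with each line fitted alone (adjusted p = 0.0539 and 0.0583 in limma). It was also lost without any 1 of 5 SNAI1 line arrays (up to 0.0843). Another B2M probe changed by 0.41 without a call (adjusted p = 0.124 in limma).

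**Figure D5:**
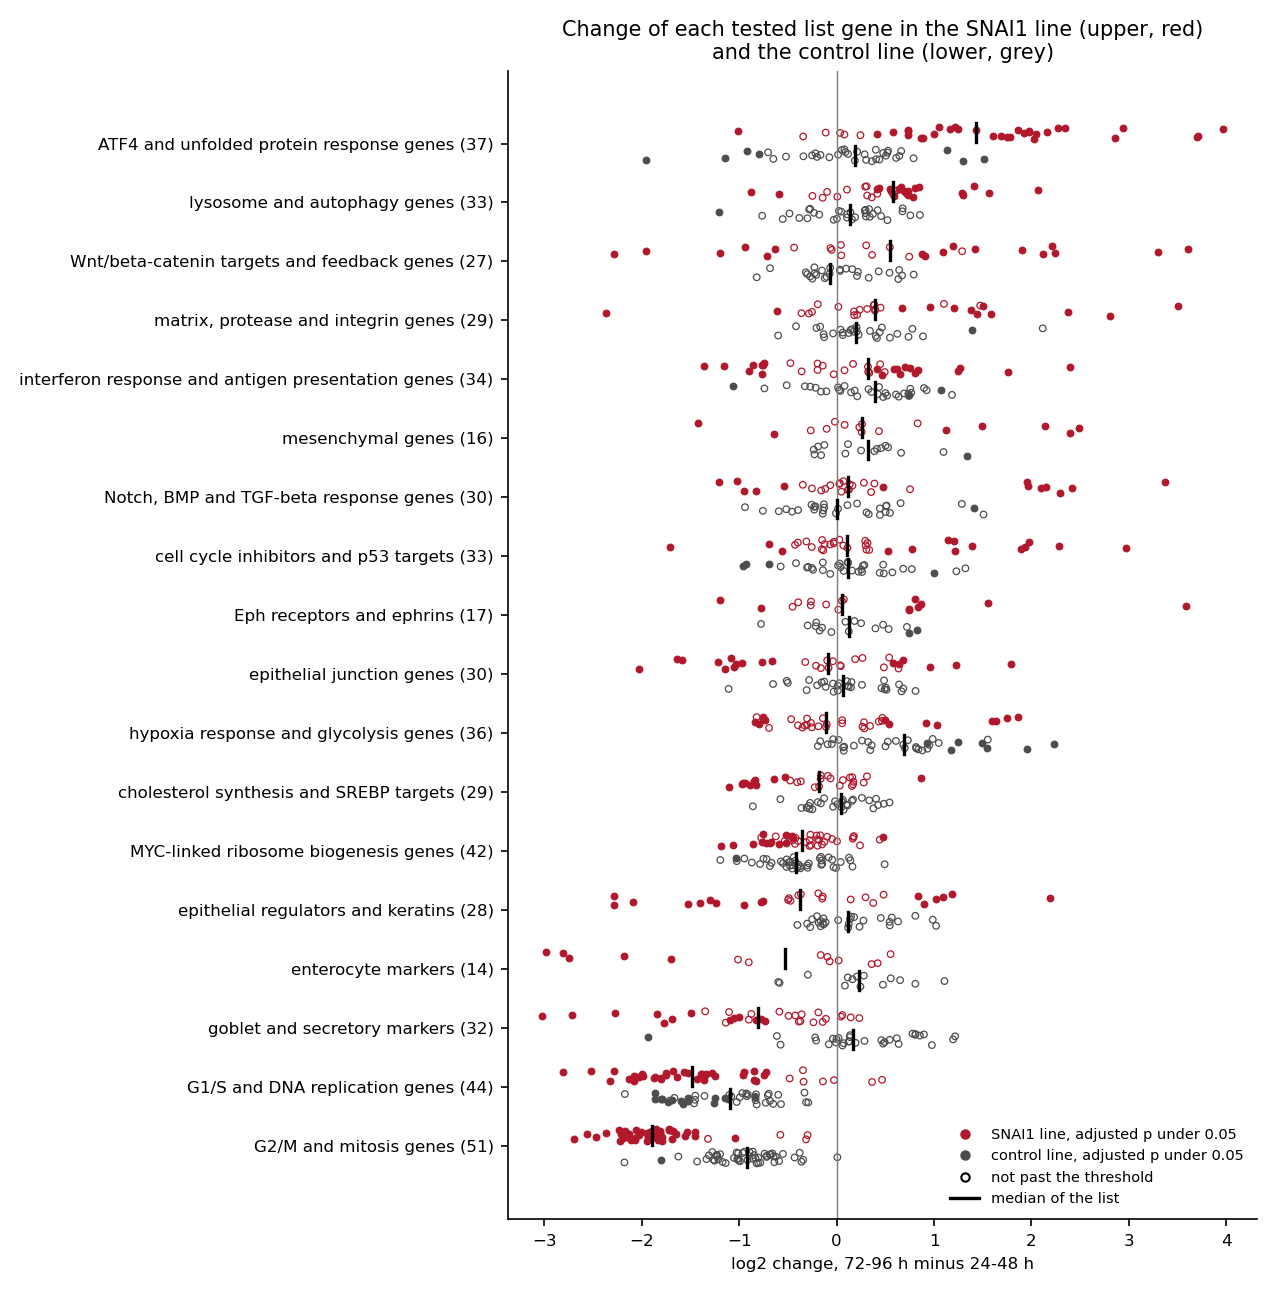
Log2 change at 72-96 h minus 24-48 h of each tested gene in 18 lists, with the SNAI1 line above (red) and the control line below (grey) in each row, filled where the adjusted p was under 0.05, and a bar at the list's median. The ATF4 list has the highest SNAI1 line median, 1.44, and the G2/M list the lowest, -1.90, with control line medians of 0.19 and -0.92.

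Of the 10 genes named for the largest control line changes, 5 were called in the SNAI1 line too and 5 were not (PCK1, IL1B, ZNF467, CLIC3 and RETNLB). PCK1, which encodes the gluconeogenic enzyme phosphoenolpyruvate carboxykinase, had 9.87 and 10.23 at 72 and 96 h, against 5.83 and 5.27 at 24 and 48 h (4.50, adjusted p = 3.09e-05 in limma). In the SNAI1 line PCK1 was detected on none of the 6 arrays (4.35 to 4.65 at 72-96 h and 4.36 to 4.41 at 24-48 h). IL1B, which encodes the cytokine interleukin 1 beta, had 8.39 and 8.76, against 5.69 and 5.70 in the control line (2.88, adjusted p = 0.000199 in limma), and was likewise undetected on the 6 SNAI1 line arrays. The differences of PCK1 and IL1B were -4.43 and -3.07 (adjusted p = 0.000383 and 0.00115 in limma). PCK1 and IL1B kept their call in the control line without each array in turn, as 8 of the 10 named control line genes did not, but both lost it where each line was fitted alone (adjusted p = 0.128 in limma). PCK1 and IL1B also lost their control line calls with 1 mean per line and time over 27 arrays. There PCK1 lost its call in the difference too, at -4.39. ZNF467, CLIC3 and PPIL6 rose in the control line by 2.44, 2.52 and 2.54, and RETNLB, UHRF1 and GINS3 fell by 1.94, 1.86 and 1.87. In the SNAI1 line UHRF1 and GINS3 fell as well, by 1.68 and 1.64, and PPIL6 rose by 1.19 (adjusted p = 0.000981, 0.00183 and 0.0301 in limma), as PTGDR fell in both lines and ATF5 went opposite ways. PPIL6 lost its SNAI1 line call without background correction (0.46) and with line and time as a random block (adjusted p = 0.091 and 0.0902 in limma). It also lost it without either SNAI1 line array at 48 h or at 96 h (0.0717 to 0.098). FCGR2A, an Fc receptor gene, fell by 2.33 in the SNAI1 line (adjusted p = 0.00503 in limma), while the control line changed by 1.90 without a call.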

How the data were processed

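RNA was hybridized to Illumina bead arrays, 1 colour, with 47323 probes. Log2 values in the deposited matrix came without a stated processing step in the sources used here, and served as an alternative. Per the file headers the deposited raw table pairs each signal with a detection p-value. These raw signals gave the main results. Signals were background-corrected with the detection p-values, offset by 16, quantile-normalized over all 27 arrays and put on the log2 scale (neqc, limma 3.58.1 in R 4.3.3). Probes detected (p under 0.01) on at least 2 of the 10 arrays were kept, 16996 in all, and each of 12614 genes was read from its probe of highest mean. Another kept probe of ITGB1, of LDHA, of PSMB9 and of TNFRSF10B moved in the same direction in the SNAI1 line without a call. Of all probes 30110 had 1 gene symbol, 8 several and 17199 none. Limma's moderated test was fitted over 4 groups (line and phase, 10 arrays), with p-values adjusted by Benjamini-Hochberg over all genes. The earlier step came from a fit of 15 arrays in 6 groups. Scripts were tested on simulated data. The number of arrays limits the precision.

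Named genes were the 12 largest rises and 12 largest falls in the SNAI1 line, 5 and 5 for the control line and for the difference, 6 per class and direction, up to 4 per list with the lowest p, and 12 genes named outright, 147 in all. The members, lists and rule were chosen with earlier results of these data known. Alternatives were other background corrections, filters, probe rules, fits, class limits, and leaving out each of the 10 arrays of the later step.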

Additional observations from a re-analysis of the deposited data

Results flagged for a closer look

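The change from 24-48 h to 72-96 h differed between the SNAI1 line and the control line for 1031 genes by limma's interaction term (adjusted p under 0.05). The 10 genes named for the largest such differences are given here as the SNAI1 line's log2 change minus the control line's. IGFBP7 differed by 5.47, RUNX3 by 4.68, KANK4 by 4.54, NELL2 by 4.37 and LAMP5 by 4.32, all more positive in the SNAI1 line. MYH13 differed by -4.47, PCK1 by -4.43, H19 by -4.42, FGFBP1 by -4.34 and FCGR2A by -4.22, all more negative in the SNAI1 line. PCK1 was not detected in the SNAI1 line, so its difference comes from the rise in the control line. Of these 10 calls 7 were lost when some single array was left out.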

How the results depend on the processing

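The cause of each shift below was not tested. Without background correction and with the authors' matrix the control line had 1053 calls, with 137 genes that kept moving, 27 that turned back, 130 that held and 401 late movers. With an offset of 50 the control line had 914 calls, with 184 that kept moving and 574 late movers, and with trend and robust eBayes it had 941. With each line fitted alone the control line had 0 calls in limma (2707 at an unadjusted p under 0.05). With 1 mean per line and time over 27 arrays it had 0 (1969 unadjusted), with 606 for the difference, 34 that turned back and 148 that held. Chosen after seeing the data, the same over 18 arrays gave 1488 calls for the control line and 1878 for the difference. With line and time as a random block (estimated correlation 0.528 in the late step) the SNAI1 line had 2415 calls, the control line 198 and the difference 419. The labels share only 2 replicate numbers, and with the number as a replicate block the control line had 302 calls, the SNAI1 line 3602 and the difference 835. Without a 2-fold minimum in the earlier step 745 genes kept moving, 202 turned back and 1144 held, and within 1.5-fold 77 held. With arrays split between the steps 115 kept moving, 22 turned back and 518 were late movers. Each of the 10 arrays of the later step was left out in turn. This gave 2427 to 3952 calls for the SNAI1 line, 2 to 1211 for the control line and 22 to 1310 for the difference. Over these fits 193 to 317 genes kept moving, 42 to 81 turned back, 159 to 457 held and 623 to 1163 were late movers. No array at 3-6 h was left out, so these ranges do not show how far the classes depend on single arrays there. Where a control array was left out, the lone array of that phase was assumed to vary like the other groups. Of 121 named genes called in the SNAI1 line 109 kept their call in every alternative. Some genes without a call changed sign. PCK1 was at -0.063 and VIM at 0.57 with the mean of all probes. With either set of time means VIM was at 0.13 and DDIT4L at 0.0027, and with the random block VIM was at 0.068. Over the fits that left out 1 array, the log2 change ran from -0.51 to 0.0048 for CLDN3, -0.46 to 0.0088 for DDIT4L, -0.095 to 0.39 for GOLT1A, -0.39 to 0.10 for KCNT1, -0.097 to 0.42 for RGL1, -0.15 to 0.46 for RTN2, -0.42 to 0.37 for RUNX1, -0.30 to 0.062 for TM7SF2 and -0.19 to 0.19 for VIM. For PCK1 it ran from -0.018 to 0.13.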
